A study of Arabidopsis thaliana with 24 samples.

Results

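The FLM/MAF family of Arabidopsis thaliana comprises 5 MADS-box genes, FLM (also MAF1, AT1G77080), MAF2 (AT5G65050), MAF3 (AT5G65060), MAF4 (AT5G65070) and MAF5 (AT5G65080), taken by their locus identifiers from deposited tables that name 4752 genes in all. The family was chosen by the authors' deposited fold changes and differences in intron retention, so these values are given as a description, with no test. Of the 5 genes, 2 had a row: FLM in both splicing tables and MAF5 in the table of red light over darkness. MAF2, MAF3 and MAF4 had no row in any table.

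RNA was sequenced from whole seedlings of 4 lines in the Col-0 ecotype, kept in red light or in darkness, which made 24 libraries in 8 groups of 3. EMS27 and rrc1-689 are mutants of RRC1, a splicing-related protein needed for signalling by the red-light receptor phytochrome B (phyB). EMS27 was set against MLB (ML1pro::PHYB/phyB-9), a phyB mutant whose only phyB comes from a transgene driven by the epidermal ML1 promoter, and rrc1-689 was set against the wild type Col-0. Whether EMS27 carries the MLB transgene, which mutation it bears and whether each line is 1 clone are not given in the sources used here. Seedlings stood on 1/2 MS plates for 60 h in red light or in darkness after cold and white light. The labels' protocols put light and dark steps alike at 4 °C, and whether growth took place at that temperature is unclear, which touches FLM because its splicing depends on temperature. The groups used were EMS27 red, MLB red, rrc1-689 red, Col-0 red and, through the authors' comparison alone, MLB dark. The other dark groups were not analysed here.

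FLM and its MAF relatives bind DNA as MADS-domain factors and delay flowering, together with the floral repressors FLC and SVP. FLM is known for alternative splicing that shifts with ambient temperature. Its best-known splice forms, FLM-beta and FLM-delta, use exon 2 or exon 3 in a mutually exclusive way, and both then share exons 4 to 8. MAF2 is known for intron retention that varies with temperature and for holding back flowering after short cold. MAF3 and MAF4 act as repressors alongside FLM and FLC, and MAF5 responds to long winter cold. FLM lies alone on chromosome 1, and MAF2 to MAF5 stand in tandem on chromosome 5, between positions 25982254 and 26002619.

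The FLM feature listed in both mutants was the last intron, chr1:28959372-28959743, of 372 bases on the plus strand, between the 42-base exon 7 and exon 8. Of the 11 annotated isoforms, 6 splice it out, 3 retain it, and the other 2 have another structure there. These structures include an exon lying within the intron, 4095 to 4144 bases from the annotated gene start. Whether that exon was used was not tested. In the retained isoforms the reading frame runs from exon 7 into the intron and meets a TAA stop after 42 intron bases. An annotated isoform that retains the intron thereby has 176 codons before its stop, against 196 in the spliced isoform with the same coding exons up to exon 7. Exon 7 and the read-through up to that stop (RefSeq, TAIR10.1, plus strand, chr1:28959330-28959413, intron bases in capitals) show where the frame ends.
exon 7 with the retained reading frame: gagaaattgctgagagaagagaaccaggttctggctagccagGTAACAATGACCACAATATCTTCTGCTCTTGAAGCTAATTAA
The acceptor side of the last intron (chr1:28959724-28959753) and both acceptors annotated for exon 7, the common one (chr1:28959310-28959339) and one farther upstream (chr1:28959131-28959160), are shown as the sites that the boundary reads below lie at or near. No reads were listed for the upstream one. Capitals mark the last 2 intron bases.
FLM exon 8 acceptor: tgtaagaaagtttcttacAGatgggaaaga
FLM exon 7 acceptor: ttatgatcttttccaaacAGgagaaattgc
FLM upstream exon 7 acceptor: ttagtattggcttcattcAGgtgaaaccct

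**Figure D1:**
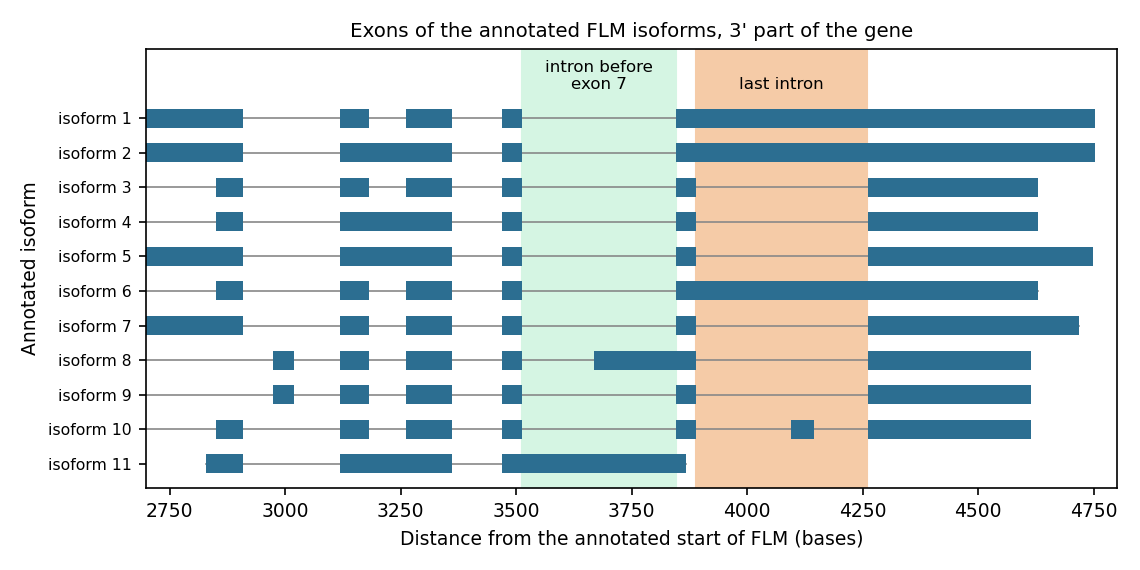
Annotated isoforms of FLM in the 3' part of the gene, with distance in bases from the annotated gene start on the horizontal axis and 1 isoform per row. Filled boxes are exons, lines are introns, and the shaded columns are the intron before exon 7 and the last intron. Of the 11 isoforms, 3 run through the last intron as exon and 1 starts exon 7 at the upstream acceptor, which makes it 179 bases longer.

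The last intron of FLM had a higher level in both rrc1 mutants than in their control lines, in rrc1-689 mainly through its 3' end. Its level is the share of reads over the exon-intron boundaries among these reads plus the spliced reads, each spliced read counted at both boundaries. The level was 32.7, 42.9 and 38.7% in the EMS27 libraries, against 7.48, 6.67 and 11.1% in the MLB libraries. It was 20, 23.8 and 20% in the rrc1-689 libraries, against 9.02, 7.93 and 8.31% in the Col-0 libraries. Every mutant library lay above every control library. The EMS27 libraries all lay above those of rrc1-689, and the MLB and Col-0 libraries overlapped.

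The mean level was 38.1% ± 5.09 in EMS27 and 8.42% ± 2.37 in MLB (SD, n = 3 each), a difference of 29.7 percentage points and 4.53 times. In rrc1-689 it was 21.3% ± 2.2 and in Col-0 8.42% ± 0.556 (SD, n = 3 each), a difference of 12.8 percentage points and 2.53 times. Both differences exceeded the spread between libraries. The authors' deposited table gave retained fractions of 0.377 for EMS27 and 0.0828 for MLB, with a bin FDR of 4e-17. The authors' deposited table for the other mutant gave 0.213 for rrc1-689 and 0.0838 for Col-0, with a bin FDR of 0.00161. The authors listed bins whose fraction differed by more than 0.05 with an FDR below 0.05, which 0.308% of bins tested did for EMS27 and MLB (0.199% as higher in EMS27), and 0.286% for rrc1-689 and Col-0 (0.206% as higher in rrc1-689). Since this contrast chose the intron, nothing is read from those shares. By absolute difference the last intron ranked 61 of 325 listed events in EMS27 and MLB, and 158 of 328 in rrc1-689 and Col-0. The median listed intron differed by 11.7 points in the first comparison and by 10.4 points in the second. In whole seedlings, fewer cells of a type and less RNA per cell cannot be told apart.

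**Figure D2:**
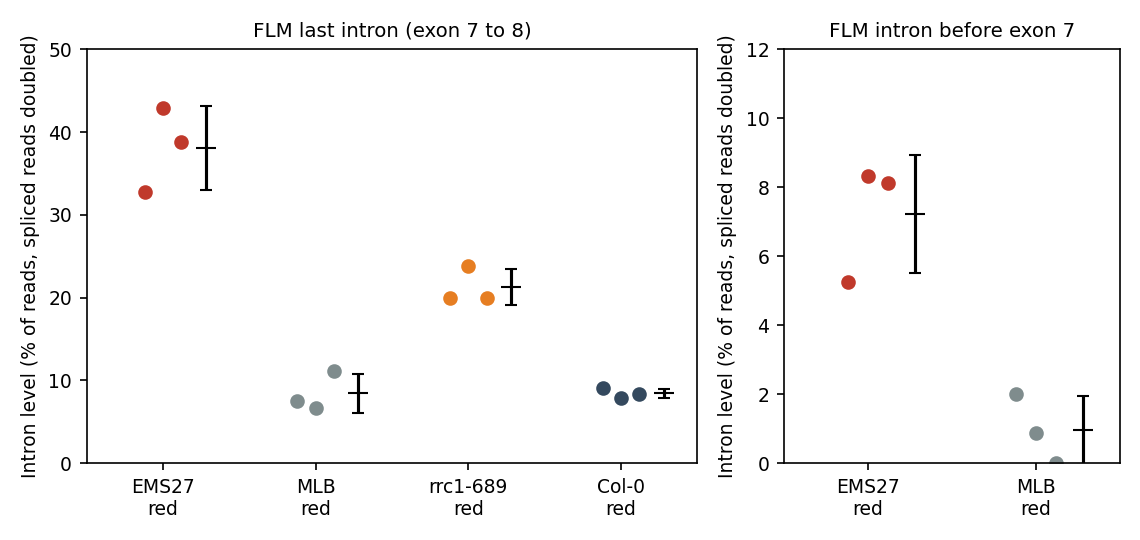
Level of the last intron of FLM (left) and of the intron before exon 7 (right) in red light, in percent of reads with spliced reads counted at both boundaries. Points are libraries, bars beside them the mean and SD of 3 libraries. All 3 EMS27 libraries lie above 32% and all 3 MLB libraries below 12% in the left panel, with rrc1-689 between 20 and 23.8% and Col-0 below 10%.

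These levels rested on 60 to 177 reads per library. EMS27 libraries had 37, 24 and 34 spliced reads between exons 7 and 8, against 99, 119 and 92 in MLB. rrc1-689 libraries had 72 each, against 121, 151 and 138 in Col-0. Every mutant library thus had fewer spliced reads than every control library. Over the intron boundaries, EMS27 libraries had 36, 36 and 43 reads, against 16, 17 and 23 in MLB. Scaled to 10000 reads over the other events listed in both mutants, spliced reads averaged 29.3 ± 4.14 in EMS27 and 89.98 ± 8.12 in MLB, and 51.6 ± 1.03 in rrc1-689 and 87.6 ± 8.96 in Col-0 (SD, n = 3 each). Boundary reads on the same scale averaged 35.9 ± 3.84 in EMS27 and 16.4 ± 3.91 in MLB, and 27.99 ± 3.9 in rrc1-689 and 16.03 ± 0.561 in Col-0. Spliced reads were thus lower and boundary reads, both ends together, higher in each mutant on this scale. Of the rrc1-689 boundary reads, 39 lay at the 5' end and 78 at the 3' end, against 39 and 36 in Col-0. The higher value in rrc1-689 thus rested mainly on the 3' end. The events used for scaling were themselves listed as changed, so the scale is relative, and whether total FLM RNA differed was not tested. FLM had no row among the genes changed between EMS27 and MLB.

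The levels were also taken at each end of the last intron alone. At the 5' boundary, with exon 7, the share of boundary reads was 34.95% ± 9.06 in EMS27 and 8.92% ± 2.27 in MLB, and 15.3% ± 1.99 in rrc1-689 and 8.69% ± 0.988 in Col-0 (SD, n = 3 each). At the 3' boundary, with exon 8, it was 40.6% ± 4.35 in EMS27 and 7.90% ± 2.59 in MLB, and 26.3% ± 5.08 in rrc1-689 and 8.13% ± 1.48 in Col-0. In rrc1-689, the 3' boundary exceeded the 5' boundary in every library, with 21, 34 and 23 reads at the 3' boundary and 15, 11 and 13 at the 5' boundary. Summed over 3 libraries this was 78 and 39 reads. Col-0 had 36 reads at the 3' boundary and 39 at the 5' boundary. EMS27 had 64 and 51 and MLB 26 and 30 at the same boundaries. In EMS27 replicate 1 the 5' boundary stood at 24.5%, apart from 40 and 40.4% in the other EMS27 libraries. With 3 libraries against 3, an exact permutation test of a single value cannot go below p = 0.1, and none was run on the boundaries.

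**Figure D3:**
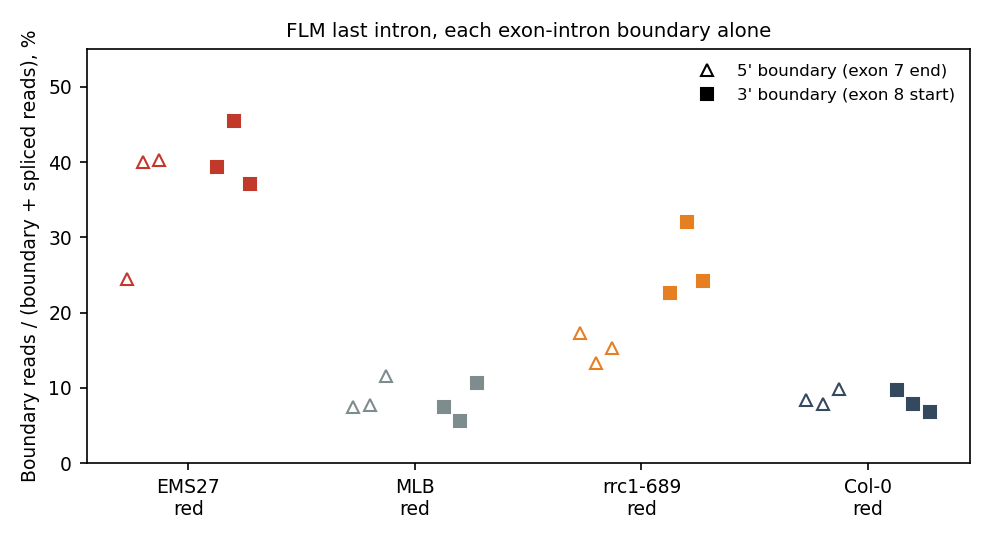
Share of boundary reads at each end of the last intron of FLM in red light, in percent of boundary plus spliced reads. Open triangles are the 5' boundary and filled squares the 3' boundary, 1 point per library. In rrc1-689 the squares, at 22.6 to 32.1%, lie above the triangles, at 13.2 to 17.2%, and in Col-0 and MLB they overlap.

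The intron before exon 7, chr1:28958995-28959329, of 335 bases, was listed for EMS27 and MLB and had no row for rrc1-689 and Col-0. Its level was 5.26, 8.33 and 8.11% in EMS27 libraries, against 2, 0.877 and 0% in MLB libraries, so that the groups did not overlap. The mean was 7.24% ± 1.71 in EMS27 and 0.959% ± 1 in MLB (SD, n = 3 each), a difference of 6.28 percentage points. The authors' deposited table gave fractions of 0.0688 for EMS27 and 0.0101 for MLB, with a bin FDR of 2.49e-06, and the event ranked 294 of 325 by absolute difference, close to the authors' threshold. Nearly all of the EMS27 reads lay at the 3' end, with 9, 8 and 8 reads at the boundary with exon 7, and 0, 0 and 1 at the boundary with exon 6. MLB libraries had 2, 2 and 0 reads at the boundary with exon 7, and 2, 0 and 0 at the boundary with exon 6. The annotation holds an isoform whose exon 7 begins 179 bases earlier, at the upstream acceptor printed above, and it reaches a stop after 148 codons. Reads from that exon would cross the 3' boundary counted here, and whether they did was not tested, because the tables hold no junction reads for that acceptor.

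The spliced reads behind the last intron were set beside those of the junction upstream of exon 7. The downstream reads are the same that entered the level, so the ratio is no independent support. In EMS27, 81, 44 and 51 reads joined exon 6 to exon 7 and 37, 24 and 34 joined exon 7 to exon 8. In MLB, 98, 113 and 84 reads joined exon 6 to exon 7 and 99, 119 and 92 joined exon 7 to exon 8. The downstream junction thus had fewer reads than the upstream one in each EMS27 library and slightly more in each MLB library. The downstream to upstream ratio averaged 0.556 ± 0.105 in EMS27 and 1.05 ± 0.0425 in MLB (SD, n = 3 each). The upstream junction, scaled to 10000 reads over the other shared events, averaged 54.2 ± 14.6 in EMS27 and 85.6 ± 8.92 in MLB. No exon 6 to exon 7 reads were listed for rrc1-689 and Col-0. The exon 2 and exon 3 pair that separates FLM-beta and FLM-delta had no row in either splicing table.

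**Figure D4:**
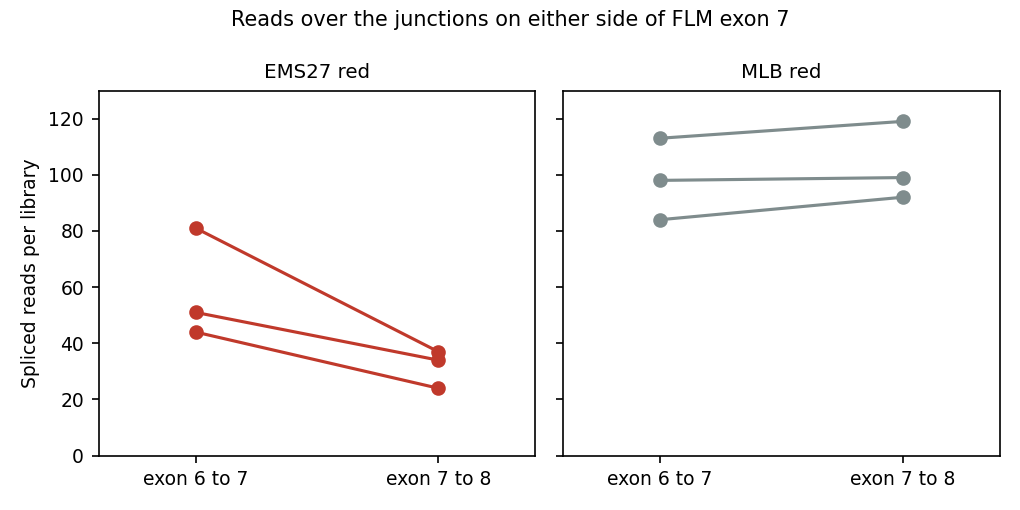
Spliced reads per library over the junctions on either side of FLM exon 7 in red light, EMS27 left and MLB right. Each line is 1 library. In EMS27 the exon 7 to 8 junction has 24 to 37 reads against 44 to 81 for exon 6 to 7, and in MLB the lines are nearly level.

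Contrasts other than the 2 that chose the intron were tested with limma on the logit of the level. Benjamini-Hochberg adjustment was made over the 136 events listed in both splicing tables. The difference between mutant effects is built from the 2 choosing contrasts. EMS27 minus rrc1-689 and MLB minus Col-0 use the same libraries that chose the intron and the other events. None of these p-values is thus free of that choice. Nothing in the labels states that libraries within a group stem from separate cultures or plants, and the p-values thus reflect variation among these libraries that may be technical. The control lines were close in level, and MLB minus Col-0 was -0.02 on the logit scale (SE 0.21, 95% interval -0.48 to 0.45, adjusted p = 0.995, limma), an odds ratio of 0.984 with an interval of 0.618 to 1.56. EMS27 minus rrc1-689 was 0.82 (SE 0.21, interval 0.35 to 1.28, odds ratio 2.27), with an unadjusted p of 0.00268 and an adjusted p of 0.0911 by limma. All 3 EMS27 libraries exceeded all 3 rrc1-689 libraries, but the call missed the threshold of 0.05, as did all 136 events in this contrast (0% called). Of these, 14 events had an unadjusted p below 0.05 by limma, and 15 in the contrast of the control lines, where 0% were called too. The difference between the effects of the 2 mutants, EMS27 minus MLB less rrc1-689 minus Col-0, was 0.84 (SE 0.297, interval 0.18 to 1.49, adjusted p = 0.34 by limma), and 2.21% of events were called in that contrast. The mutants were set against different control lines, so mutation and line background cannot be told apart in either contrast of the mutants. On percentage points instead of logits, both the mutant contrast and the difference of effects were 16.8 points and passed, with adjusted p of 0.000977 and 0.0166 by limma. The mutant contrast also passed on the logit scale with weights from reads (0.80, adjusted p = 0.00119, limma), so its call turns on both scale and weighting.

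Among the 135 other events listed in both tables, the levels most like that of the last FLM intron over the 12 red libraries were those of introns in AT1G05805 (Pearson r = 0.976), KEA1 (0.959) and AT1G04910 (0.958). The median r was 0.804 and 38 values were negative, among events that were all listed for changing in both mutants. AT1G05805 averaged 39.7% in EMS27 and 8.53% in MLB, and 27.3% in rrc1-689 and 8.54% in Col-0. KEA1, which encodes a chloroplast potassium antiporter, averaged 39.8% in EMS27 and 4.62% in MLB, and 23.1% in rrc1-689 and 3.62% in Col-0. AT1G04910 averaged 18.9% in EMS27 and 0% in MLB, and 8.11% in rrc1-689 and 0.483% in Col-0. In all 3, as in FLM, EMS27 was highest and rrc1-689 next, and the order of the 2 control lines varied. The 3 were picked by r among events listed in both mutants, so their shared order follows from the choice. The points share libraries and depth, so r is a description.

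The last intron of FLM was compared with 133189 annotated introns of the TAIR10.1 genome. Its length stood at percentile 90.9, against a median of 101 bases. The 5' splice site scored 8.28 bits against the base frequencies of all donors, at percentile 71.8. The 20 bases before the acceptor AG held 45% pyrimidines, at percentile 7.22, against a median of 65%. In the intron before exon 7 these values were percentile 88.9 for length, 10 bits and percentile 94.9 for the donor, and 70% and percentile 70.3 for pyrimidines. The last intron thus joined an ordinary donor to an acceptor tract poorer in pyrimidines than most. The part of either feature in the levels was not tested.

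MAF2, MAF3 and MAF5 have an intron after an exon alike to FLM exon 7, with 38, 39 and 36 of 42 exon bases the same as in FLM. In MAF4 the best match held 17 of 42 bases, and no counterpart was taken. The MAF2 intron (chr5:25985696-25986012), the MAF3 intron (chr5:25990656-25990963) and the MAF5 intron had no row in either splicing table. Their donors are set beside that of FLM to show how alike the family is at this site, at chr1:28959362-28959391 for FLM, and at chr5:25985686-25985715, chr5:25990646-25990675 and chr5:26001620-26001649 for MAF2, MAF3 and MAF5 (RefSeq, TAIR10.1, plus strand). Capitals mark the first 6 intron bases.
FLM: ggctagccagGTAACAatgaccacaatatc
MAF2: ggctagccagGTGACAaaaacatctcttga
MAF3: ggctagccagGTGACAaaaacatctcttat
MAF5: agctagcgagGTAACAgaggcacaatctct
Counted from the first intron base, MAF2 and MAF3 carry A3G relative to FLM, and MAF5 matches FLM over all 6 bases. The donor scored 5.86 bits in MAF2 and MAF3, at percentile 31, and 7.43 bits in MAF5, at percentile 55.7. The acceptors of MAF2 and MAF3 follow, with the AG in capitals, at chr5:25985993-25986022 and chr5:25990944-25990973.
MAF2 acceptor: tataagaaagtttcttacAGgtggggaaga
MAF3 acceptor: tgtaagaaagtttcttacAGgtggggaaga
Of the 30 bases shown, 27 in MAF2 and 28 in MAF3 equal those of the FLM acceptor, and the pyrimidine share was 45% in MAF2, MAF3 and FLM. It was 45% in MAF5 as well, whose acceptor, not shown, equals that of FLM in 23 of 30 bases. To see whether reads could be shared between members, windows were matched to the genome, and those of 50 bases over the 5' and 3' ends of the last intron and the 3' end of the intron before exon 7 each occurred at 1 place. Over all exons, 12 of 4287 FLM windows of 50 bases (0.28%) occurred in another member, and the longest shared run was 61 bases, with MAF3.

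At the level of whole genes, 0 of the 5 members had a row in the table of MLB over EMS27, where 5.99% of genes tested were called (1.85% as higher in EMS27). The authors' limits were an FDR below 0.01 and a log2 fold change past 1 in either direction. In the table of MLB red over MLB dark 1 of the 5 had a row, where 19.5% of genes tested were called and 6.76% were called lower in red light. A gene without a row missed these limits or was not tested, and its level is not known from the tables.

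MAF5, a floral repressor gene at chr5:25997504-26002619, was the member that passed. The authors' deposited table gave a log2 fold change of -1.24 for MLB red over MLB dark (FDR 3.69e-07), a 2.35-fold lower level in red light than in darkness. It stood at rank 922 of the 1347 genes lower in red light, whose median log2 fold change was -1.47, and so was a modest change within that table. The table holds no value per library, so the spread behind it is not known. MAF2, MAF3 and MAF4, its upstream neighbours in the tandem cluster, had no row. Of the 5 genes on each side of the cluster, 3 had one: ASN2 (4.51), an asparagine synthetase gene, ANNAT2 (-1.04), an annexin gene, and ACX2 (-1.04), an acyl-CoA oxidase gene, in log2 fold change of red over dark in the authors' deposited table. Tissue markers moved in the same comparison. All 4 green-tissue markers were higher in MLB red than in MLB dark, from 1.87 for RBCS1A to 7.80 for CAB3 in the authors' deposited table, as were all 3 root hair markers, from 2.01 for COBL9 to 2.21 for EXPA18. None of the 4 epidermal, 3 shoot apex and 2 vascular markers had a row there. The part of tissue makeup in the MAF5 value was not tested.

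Other genes of flowering time were taken from 5 lists with 75 entries, none of them family members. Between EMS27 and MLB, 4 of the 75 (5.33%) had a row, near the 5.99% called among all genes tested. All 4 were higher in EMS27, while 69.1% of all genes in that table were higher in MLB. Among all genes tested, 1.85% were called as higher in EMS27. The lists were chosen with earlier results known, so nothing is read from these counts. FLC, the closest relative of the family and its partner repressor, was 3.44-fold higher in EMS27, with a log2 fold change of MLB over EMS27 of -1.78 (FDR 9.72e-56) in the authors' deposited table. The clock-linked promoters of flowering GI (-1.63) and FKF1 (-1.07) and the RNA-binding protein gene GRP7 (-1.14) had the same direction in the authors' deposited table. The other 14 flowering repressors, all 23 chromatin and FRIGIDA regulators of FLC and all 7 genes of the autonomous pathway had no row. Among the tissue markers, STM of the shoot apex was higher in EMS27 (-1.44, MLB over EMS27) and the green-tissue marker CA1 was lower (1.27) in the authors' deposited table, and the other 14 had no row. Their part in these values was not tested. RRC1 and PHYB, the genes altered in these lines, had no row in any table, so the labels could not be checked on them.

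Between MLB red and MLB dark, 9 of the 75 entries (12%) had a row, below the 19.5% called among all genes tested. Of these, 7 were higher in red light, where 65.3% of all listed genes were. They included the repressors CDF1 (4.33), SNZ (2.62), CDF3 (1.91) and SVP (1.47), the last of which encodes the partner of FLM, as log2 fold changes in the authors' deposited table. The integrator SOC1 (2.84), on which FLC and SVP act, and the age-pathway factors SPL9 (2.71) and SPL15 (1.73) were higher as well in the authors' deposited table. MAF5, GRP8 (-1.15) and the splice-site factor gene U2AF35B (-1.10) were lower there. FLC had no row in that table. The comparisons with EMS27 and with darkness share the MLB red libraries, and their values stand side by side only.

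**Figure D5:**
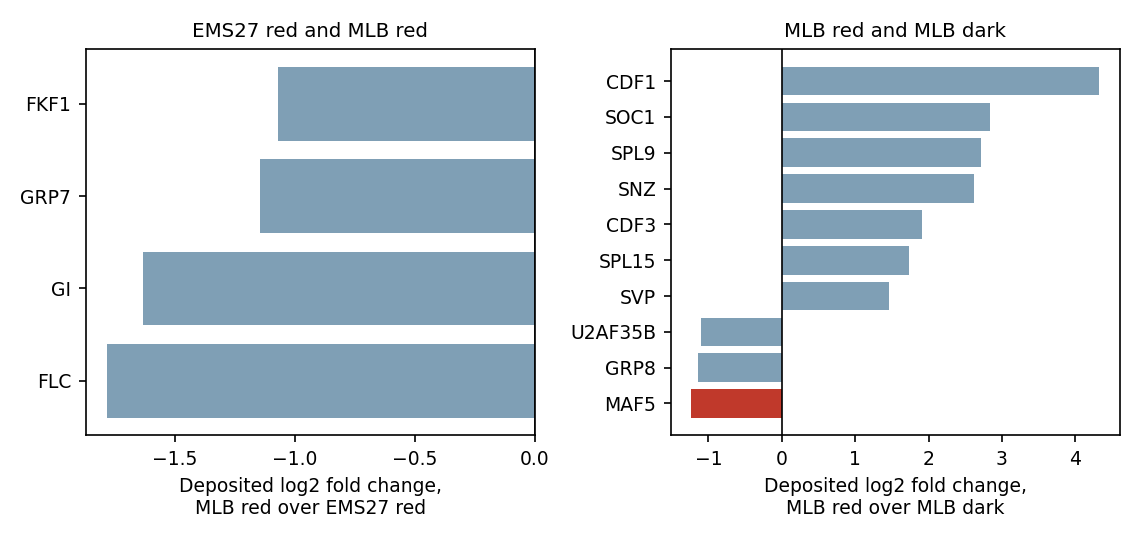
Log2 fold changes from the authors' deposited tables for flowering genes with a row, MLB red over EMS27 red (left) and MLB red over MLB dark (right, MAF5 in red). Bars to the left of 0 in the left panel mean a higher level in EMS27, which holds for all 4 genes. In the right panel MAF5, GRP8 and U2AF35B are lower in red light and the other 7 are higher.

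Among the events in the same lists, some lay in splicing regulators studied for FLM or MAF2, a list of 10 entries. These were 3 of 5 for EMS27 and MLB, in 3 genes, and 5 of 6 for rrc1-689 and Col-0, in 2 genes. Of all bins tested, 0.308% were listed for EMS27 and MLB and 0.286% for rrc1-689 and Col-0. How many bins were tested in the listed genes is not known, so the counts cannot be set against these shares. No test was made of them. U2AF65A and U2AF65B encode the large subunit of the U2AF factor, which reads the acceptor tract. A U2AF65A stretch of 100 bases, listed as intron retention, stood at 1.32% ± 0.52 in EMS27 and 20.9% ± 0.511 in MLB. It stood at 2.72% ± 0.661 in rrc1-689 and 18.5% ± 3.44 in Col-0 (SD, n = 3 each). The other 2 U2AF65A events were listed for rrc1-689 and Col-0, adjoin or overlap that stretch, and ran the other way. An alternative acceptor event over the adjoining 173 bases stood at 83.2% ± 2.94 in rrc1-689 and 62.0% ± 5.51 in Col-0. An intron of 273 bases that spans both stretches stood at 58.3% ± 3.08 in rrc1-689 and 46.6% ± 5.35 in Col-0. The 3 are readings of the same region and not independent. A U2AF65B intron was retained at 26.2% ± 2.48 in EMS27 and 61.8% ± 2.81 in MLB. A GRP7 intron stood at 15.5% ± 0.537 in EMS27 and 9.998% ± 1.48 in MLB. SKIP, a splicing factor gene of the clock and flowering, had a stretch set by an alternative acceptor included at 60.1% ± 13.3 in rrc1-689 and 20.7% ± 5.84 in Col-0. A SKIP intron that contains this whole stretch was retained at 14.4% ± 1.26 in rrc1-689 and 3.37% ± 4.39 in Col-0. The 2 SKIP values are thus not independent. The groups did not overlap in these 8 differences. The differences chose the events, and some of the U2AF65A and SKIP events share bases. Among flowering genes outside splicing, a stretch set by an alternative acceptor of TOE2, an AP2-like repressor, was included at 12.2% ± 2.12 in EMS27 and 0.513% ± 0.888 in MLB, and an FLK intron was retained at 16.9% ± 3.73 in rrc1-689 and 9.53% ± 3.86 in Col-0. An SNZ intron was listed for EMS27 and MLB, with levels of 0.8, 1.70 and 2.78% in EMS27 libraries and 100, 4.59 and 5.26% in MLB libraries, the first MLB value from 5 reads. FLC itself had no splicing event in either table.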

How the data were processed

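Reads had been aligned with TopHat2 2.1.1 to TAIR10, per the submitters' processing notes, and compared with ASpli 1.9, per the authors' deposited information sheet. How strand and shared reads were counted is not given in the sources used here. For genes, the authors deposited a log2 fold change with a p-value and FDR (a q-value) and no value per library. For splicing events, the authors deposited read counts per library over boundaries and junctions, the fraction per group, and its difference as a score from -1 to 1 (control minus mutant). Levels per library were computed from the counts, and the deposited fractions were recovered within 0.0001 for all 325 and 328 events. The sign of the log2 values was checked on 26 genes with event reads, and 26 of 26 agreed in sign. Event reads per library over listed events were 24482 to 28447 in EMS27 and MLB and 34004 to 38559 in rrc1-689 and Col-0, which are not library depths. The numbers of genes (19143 and 19916) and bins tested were recovered from p-value, FDR and rank. The bin numbers came from rounded values and are approximate, as are the shares of bins taken from them.

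limma 3.58.1 in R 4.3.3 was fitted to the logit of the level, with 0.5 added to both read sums, over 12 libraries in 4 groups without a replicate block, and tested on simulated data. No replicate libraries were identical. Groups came from the labels' titles. Replicate numbers did not pair the samples: deviations correlated between -0.187 and 0.13.

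The members and gene lists were chosen with earlier results of these data known. Named were all members, each listed gene of a flowering list up to 6 by absolute change, and the 3 events most alike by Pearson correlation; a few neighbours, markers and list events are named beside them. Alternatives were leaving out each library, another logit offset, a read minimum of 10, weights from reads, percentage points, each read counted once, a replicate block and, added after the data were seen, each boundary alone. Gene coordinates equalled TAIR10.1 in 4975 of 4978 rows.

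A result on a family member is not reported here.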

Additional observations from a re-analysis of the deposited data

How the results depend on the processing

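The listed differences of FLM kept their direction without any 1 replicate number, left out of both groups at once: 26.4 to 31.9 points for the last intron in EMS27 and MLB, 11.3 to 13.8 points in rrc1-689 and Col-0, and 5.36 to 7.78 points for the intron before exon 7. With each read counted once they were 39.6, 19.5 and 11.6 points. At the 5' boundary alone the difference in rrc1-689 and Col-0 was 6.58 points, and that of the intron before exon 7 reversed to -0.0256 points. At the 3' boundary alone they were 18.2 and 11.7 points. Both boundary settings were chosen after seeing the data. Fewer reads lie behind either boundary alone.

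The difference between mutant effects on the last intron ranged from 0.72 to 1.00 without 1 library (limma adjusted p 0.177 to 0.595), and passed only on percentage points (16.8, adjusted p = 0.0166). EMS27 minus rrc1-689 ranged from 0.72 to 0.93 (limma adjusted p 0.0653 to 0.328), and passed with weights from reads (0.80, adjusted p = 0.00119) and on percentage points (16.8, adjusted p = 0.000977). MLB minus Col-0 ranged from -0.18 to 0.10 and reversed with weights from reads (0.0160, adjusted p = 0.988). It was not called under any alternative. Events called by limma for EMS27 minus rrc1-689 numbered 2 with 1 added, 1 with at least 10 reads, 15 with weights, 15 on points and 0 to 3 without 1 library. For MLB minus Col-0 they were 2 with weights, 1 on points and 0 to 5 without 1 library. For the difference of effects they were 8 on points, 0 with the replicate block and 0 to 3 without 1 library. With the replicate block, the limma adjusted p of the last intron was 0.505 for the difference of effects and 0.191 for EMS27 minus rrc1-689. The cause of these changes was not tested. No replicate block was possible for the authors' gene values. With 60 to 177 reads per library, counting error limits the precision of each level.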
